A study of Homo sapiens with 3 samples.

Results

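Carbonyl and aldo-keto reductases and cytochrome P450 reductase, enzymes known to reduce anthracyclines such as adriamycin, were followed across the 3 lines of the study. The genes were chosen by symbol, from what is known of the enzymes, and with earlier results of these data known. For that reason the set as a whole was not tested. The genes are CBR1, CBR3, CBR4, AKR1A1, AKR1B1, AKR1B10, AKR1C1, AKR1C2, AKR1C3 and POR. These 10 symbols were all found among the 46427 genes of the table. The study sequenced RNA of MDA-MB-468 (MM468), a triple-negative breast cancer line, and of drug-resistant cells derived from it. MM468 cells were wild type and not treated. Adriamycin-resistant cells were the survivors of MM468 exposed to adriamycin at 10 to 140 nM. Paclitaxel-resistant cells were the survivors of MM468 exposed to paclitaxel at 2 to 320 nM. The sources used here do not say whether drug was present when RNA was taken, nor whether a resistant line was 1 clone. There was 1 library of each line, and differences between the lines therefore come without a replicate check or a p-value. What differs between libraries and what differs between lines cannot be told apart.

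Carbonyl reductases (CBR) belong to the short-chain dehydrogenases, and aldo-keto reductases (AKR) are a separate family of barrel-shaped enzymes. Both take hydride from NADPH and can turn the side-chain ketone of adriamycin into an alcohol, adriamycinol, which is a weaker cytotoxic agent. NADPH-cytochrome P450 reductase, encoded by POR, instead passes single electrons to the quinone of the drug, and the product reacts with oxygen. Paclitaxel is not an anthracycline.

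Counts summed to 32704885 in MM468, 47567927 in adriamycin-resistant and 43242628 in paclitaxel-resistant cells. Levels are given as TPM, a transcript abundance that takes gene length and sequencing depth into account. Fold changes were computed on the counts after TMM normalization, with exact binomial 95% intervals that cover counting error only. A change is called at 2-fold or more. ABCB1, the efflux pump raised in both resistant lines, had 10 counts in MM468, 8374 in adriamycin-resistant and 8171 in paclitaxel-resistant cells, and its fold change in adriamycin-resistant cells was 563 (95% interval 309 to 1187). All 6 epithelial markers were detected in every library, and their summed level was between 7417 and 8306 TPM. The 3 endothelial markers summed to at most 0.408 TPM. The 4 fibroblast markers summed to between 7.72 and 13.3 TPM and the 3 leukocyte markers to between 2.52 and 13.8 TPM. Most of the fibroblast sum in each library was COL1A1, and most of the leukocyte sum was CD68. COL1A1 was at 7.81, 13.3 and 7.61 TPM and CD68 at 8.17, 13.8 and 2.08 TPM in MM468, adriamycin-resistant and paclitaxel-resistant cells. The part of these markers in the results was not tested.

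The AKR1C genes lie side by side on chromosome 10 and are close copies of each other, which bears on how reads can be assigned to them. The 250 bases before the RefSeq starts of AKR1C1, AKR1C2 and AKR1C3 are shown first because they let the reader see how alike the copies are, and the window of AKR1B1, the most abundant gene of the set in MM468, is shown beside them. Sequences are from RefSeq on GRCh38.p14, 5′ to 3′ on the strand of the gene. Capitals mark a CCAAT box, read here on the opposite strand as ATTGG, in the AKR1C genes and the core GCGTG of a xenobiotic response element, read on the opposite strand as CACGC, in AKR1B1. The windows are chr10:4963165-4963414 on the plus strand for AKR1C1, chr10:5003858-5004107 on the minus strand for AKR1C2, chr10:5094164-5094413 on the plus strand for AKR1C3 and chr7:134459240-134459489 on the minus strand for AKR1B1.
AKR1C1: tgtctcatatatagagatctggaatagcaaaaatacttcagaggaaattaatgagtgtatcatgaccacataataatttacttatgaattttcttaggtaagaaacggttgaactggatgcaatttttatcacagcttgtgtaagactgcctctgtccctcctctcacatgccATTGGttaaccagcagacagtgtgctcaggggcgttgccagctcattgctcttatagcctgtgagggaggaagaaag
AKR1C2: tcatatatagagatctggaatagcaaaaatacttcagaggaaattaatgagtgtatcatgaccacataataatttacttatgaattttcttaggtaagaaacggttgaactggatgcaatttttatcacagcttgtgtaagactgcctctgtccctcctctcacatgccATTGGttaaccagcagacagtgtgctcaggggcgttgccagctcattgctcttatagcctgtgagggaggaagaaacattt
AKR1C3: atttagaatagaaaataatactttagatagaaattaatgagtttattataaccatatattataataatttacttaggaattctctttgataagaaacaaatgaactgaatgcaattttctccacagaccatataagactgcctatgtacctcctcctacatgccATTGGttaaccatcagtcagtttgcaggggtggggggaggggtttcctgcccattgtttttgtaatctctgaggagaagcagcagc
AKR1B1: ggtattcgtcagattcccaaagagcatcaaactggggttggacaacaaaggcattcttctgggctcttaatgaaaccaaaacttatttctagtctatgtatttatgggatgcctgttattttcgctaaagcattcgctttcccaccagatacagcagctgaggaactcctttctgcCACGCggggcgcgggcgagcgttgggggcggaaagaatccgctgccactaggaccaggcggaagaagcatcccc

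Of 246 aligned bases, 245 were identical between the AKR1C1 and AKR1C2 windows, an identity of 99.6%. AKR1C3 shared 78.6% of its aligned bases with AKR1C1 and 79.1% with AKR1C2. The ATTGG began 77 bases before the start of AKR1C1, 81 before that of AKR1C2 and 86 before that of AKR1C3. AKR1C3 and AKR1B1 each have another annotated start, and longer transcripts in GENCODE v29 reach into or across the AKR1C windows, so these windows need not be the ones used in the lines. RefSeq windows were found for 7 of the 10 genes. Antioxidant, xenobiotic, AP-1, CCAAT and TATA motifs were searched on both strands of all 35116 windows of this length. The antioxidant response element core TGACNNNGC was in 10.9% of them, GCGTG in 32.2%, the AP-1 site TGANTCA in 6.57%, CCAAT in 32.0% and TATAAA in 10.7%. Among the 7 genes, TGACNNNGC was matched in CBR1 only, where it began 159 bases before the start, and GCGTG was matched in CBR1, CBR4 and AKR1B1. These matches describe letters and say nothing of whether a factor binds.

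In MM468 the order of the levels was AKR1B1 at 224 TPM, CBR1 at 163, AKR1C2 at 156, AKR1A1 at 87.9, POR at 83.3, CBR3 at 41.5, AKR1C1 at 33.9, CBR4 at 18.2, AKR1B10 at 13.5 and AKR1C3 at 8.64 TPM. Neighbours in this order cannot be separated by replicate error, since there was 1 library. The 10 genes summed to 830 TPM in MM468, 1602 TPM in adriamycin-resistant cells and 682 TPM in paclitaxel-resistant cells. AKR1B1 made up 26.9% of that sum in MM468, 53.5% in adriamycin-resistant cells and 22.6% in paclitaxel-resistant cells. The transcript lengths behind the deposited TPM are not given in the sources used here.

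Adriamycin-resistant cells were compared with MM468 to see how these genes differed in cells selected on a drug that the enzymes reduce. AKR1B10, AKR1C3 and AKR1B1 were higher by 8.15, 6.41 and 3.82-fold, the other 7 genes differed by less than 2-fold, and none of the 10 was at least 2-fold lower. Thus 3 of 10 genes were called higher, and over all 17950 genes compared 10.9% were higher and 11.4% lower by 2-fold or more. The median log2 fold change of the 10 genes was 0.16, against 0.02 over all genes. In paclitaxel-resistant cells, 1 of the 10 genes, AKR1C3, was at least 2-fold higher than in MM468, and 4 were at least 2-fold lower, namely AKR1C1, AKR1B10, AKR1A1 and AKR1C2. The shares over the 19099 genes in that comparison were 20.5% higher and 13.5% lower by 2-fold or more, and the median log2 fold change was -0.71 for the 10 genes and 0.07 for all. On the deposited TPM with a pseudocount of 1, the log2 fold changes of AKR1A1 and AKR1C2 there were -0.92 and -0.76, within 2-fold. With library size as the only normalization they were -1.04 and -0.92, so that AKR1A1 was still called and AKR1C2 was not. All 10 genes passed the count minimum in every comparison. The comparisons share the MM468 library and are therefore not independent.

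AKR1B1 encodes aldose reductase, which turns glucose into sorbitol and reduces many aldehydes. It is on chromosome 7 (chr7:134442350-134459284, minus strand, GRCh38). It had 4918 counts in MM468, 27661 in adriamycin-resistant and 3981 in paclitaxel-resistant cells, or 224, 858 and 154 TPM. The adriamycin-resistant library was thus the high one, with a fold change of 3.82 against MM468 (95% interval 3.71 to 3.94). In paclitaxel-resistant cells AKR1B1 was 1.91-fold below MM468 (95% interval 1.83 to 1.99), which is short of the 2-fold call.

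AKR1B10, a neighbour of AKR1B1 (chr7:134527592-134541408, plus strand), encodes a reductase of retinal and lipid aldehydes. Its counts were 326 in MM468, 3913 in adriamycin-resistant and 129 in paclitaxel-resistant cells, or 13.5, 108 and 4.30 TPM. It was 8.15-fold higher in adriamycin-resistant cells (95% interval 7.28 to 9.16) and 3.91-fold lower in paclitaxel-resistant cells (95% interval 3.18 to 4.83) than in MM468. No stretch of 50 bases was shared by the AKR1B1 and AKR1B10 transcripts, whose coding sequences were 76.1% identical. AKR1B15, a closer copy with 85.9% identity to AKR1B10, shared 1.14% of the 100-base and 11.6% of the 50-base windows of AKR1B10, and it had 359, 381 and 285 counts in the same order of lines. Within the counts of AKR1B1 and AKR1B10 together, AKR1B10 took 6.22% in MM468 (95% interval 5.58 to 6.90), 12.4% in adriamycin-resistant (12.0 to 12.8) and 3.14% in paclitaxel-resistant cells (2.63 to 3.72). The 2 genes therefore did not move by the same factor.

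Other genes within 500 kb of the AKR1B pair were looked at after these values were seen. In adriamycin-resistant cells 10 could be set against MM468, of which 3 were higher and 0 lower by 2-fold or more, and their median log2 fold change was 0.48. In paclitaxel-resistant cells 9 passed, with 1 higher, 3 lower and a median of -0.64. The 3 higher in adriamycin-resistant cells were LRGUK (5 to 55 counts), LINC03060 (61 to 218 counts) and LOC105375517 (6 to 20 counts).

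AKR1C1, AKR1C2 and AKR1C3 encode hydroxysteroid dehydrogenases, of which AKR1C1 inactivates progesterone, AKR1C2 inactivates dihydrotestosterone and AKR1C3 makes testosterone and also forms prostaglandin F. They lie at chr10:4963253-4983283 (plus strand), chr10:4987400-5018031 (minus strand) and chr10:5035354-5107686 (plus strand). AKR1C3 was the lowest of the 3 in MM468, with 153 counts and 8.64 TPM, and had 1445 counts and 54.1 TPM in adriamycin-resistant and 621 counts and 28.7 TPM in paclitaxel-resistant cells. Both resistant libraries were above MM468, 6.41-fold (95% interval 5.43 to 7.63) and 2.62-fold (95% interval 2.19 to 3.15). AKR1C3 was the 1 gene of the 10 called higher in both.

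AKR1C2 had 7213 counts in MM468, 12467 in adriamycin-resistant and 5029 in paclitaxel-resistant cells, or 156, 174 and 91.7 TPM. It was 1.17-fold higher in adriamycin-resistant (95% interval 1.14 to 1.21) and 2.22-fold lower in paclitaxel-resistant cells (95% interval 2.14 to 2.30). AKR1C1 had 3279, 3131 and 821 counts in the same order, or 33.9, 21.4 and 6.89 TPM. It was 1.54-fold lower in adriamycin-resistant (95% interval 1.47 to 1.62) and 6.18-fold lower in paclitaxel-resistant cells (95% interval 5.72 to 6.68), where it changed most of the 10 genes.

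How far these AKR1C values can be taken singly depends on shared reads. The coding sequences of AKR1C1 and AKR1C2 were 98.0% identical, and 17.2% of the 100-base windows of the AKR1C1 transcript and 31.1% of those of AKR1C2 occurred in the other. With 50-base windows these shares were 28.3% and 50.8%. Of the AKR1C3 transcript, 4.22% of the 100-base windows were in AKR1C2 and 1.11% in AKR1C1, and with 50-base windows 9.61% and 7.68%. The read length and the rule by which shared reads were assigned are not given in the sources used here, so the split between AKR1C1 and AKR1C2 is uncertain. The counts of both summed gave log2 fold changes of 0.01 in adriamycin-resistant and -1.47 in paclitaxel-resistant cells, so the direction of AKR1C1 in adriamycin-resistant cells is not held by the sum. AKR1C4, the liver member of the cluster, had 0 counts in each library.

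AKR1C3 took 1.44% of the counts of the 3 AKR1C genes in MM468 (95% interval 1.22 to 1.68), 8.48% in adriamycin-resistant (8.06 to 8.91) and 9.60% in paclitaxel-resistant cells (8.89 to 10.3). By TPM, AKR1C3 held 4.35%, 21.7% and 22.5% of the family in the same order. The share of AKR1C1 was 30.8% in MM468 (95% interval 29.9 to 31.7), 18.4% in adriamycin-resistant (17.8 to 19.0) and 12.7% in paclitaxel-resistant cells (11.9 to 13.5), and AKR1C2 held 67.8%, 73.2% and 77.7%. AKR1C3 thus gained share in both resistant libraries while AKR1C1 lost it. The family as a whole had 10645, 17043 and 6471 counts, so in paclitaxel-resistant cells AKR1C3 was higher within a family total whose log2 fold change was -1.35.

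Genes within 500 kb of the AKR1C cluster were also looked at after the values were seen. Of 11 compared between adriamycin-resistant cells and MM468, 2 were higher and 7 lower by 2-fold or more, and in paclitaxel-resistant cells 0 of 10 were higher and 8 lower. Most of them were long non-coding RNAs at under 100 counts. CALML5, a calmodulin-like gene of epidermis, had 4092 counts in MM468, 867 in adriamycin-resistant and 391 in paclitaxel-resistant cells. AKR1E2, an aldo-keto reductase next to the cluster, had 76, 464 and 58 counts, which was 4.14-fold higher in adriamycin-resistant (95% interval 3.25 to 5.36) and 2.03-fold lower in paclitaxel-resistant cells (95% interval 1.42 to 2.91). By deposited TPM, AKR1E2 was at 2.62 in MM468 and 1.56 in paclitaxel-resistant cells, which is within 2-fold.

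AKR1A1 (chr1:45550543-45570049, plus strand) encodes aldehyde reductase, which is present in most tissues. It had 1824 counts in MM468, 2087 in adriamycin-resistant and 1171 in paclitaxel-resistant cells, or 87.9, 67.0 and 46.1 TPM. MM468 had the highest level and paclitaxel-resistant cells the lowest. The fold change was 1.29-fold lower in adriamycin-resistant (95% interval 1.21 to 1.37) and 2.41-fold lower in paclitaxel-resistant cells (95% interval 2.24 to 2.60).

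CBR1 encodes the main cytosolic carbonyl reductase of anthracyclines and lies at chr21:36069941-36073166 on the plus strand. Its counts were 2923, 4555 and 4429 in MM468, adriamycin-resistant and paclitaxel-resistant cells, or 163, 167 and 199 TPM. The log2 fold change was 0.08 in adriamycin-resistant cells and -0.03 in paclitaxel-resistant cells, where the interval of the ratio, 0.934 to 1.03, included 1. With library size as the only normalization the latter was 0.20, so no direction is given for CBR1 in paclitaxel-resistant cells.

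CBR3, a close relative next to CBR1 (chr21:36134912-36146566, plus strand), has a narrower range of known substrates. It had 612 counts in MM468, 467 in adriamycin-resistant and 735 in paclitaxel-resistant cells, or 41.5, 20.8 and 40.4 TPM. The adriamycin-resistant library was the low one, 1.93-fold below MM468 (95% interval 1.71 to 2.18), and the interval reaches past 2-fold. Within CBR1 and CBR3 together, CBR3 took 17.3% of the counts in MM468 (95% interval 16.1 to 18.6), 9.30% in adriamycin-resistant (8.51 to 10.1) and 14.2% in paclitaxel-resistant cells (13.3 to 15.2). The 2 transcripts shared no window of 50 bases and their coding sequences were 77.0% identical. CBR3-AS1, which overlaps CBR3 on the other strand, had 58, 77 and 238 counts, and since strand use in the counting is not given, reads from the 2 genes may not have been told apart.

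CBR4, a mitochondrial carbonyl reductase that acts on quinones and takes part in fatty acid synthesis, lies at chr4:168863770-169010275 on the minus strand. It had 862, 1313 and 957 counts, or 18.2, 17.4 and 15.7 TPM. Its log2 fold change of 0.05 in adriamycin-resistant cells had an interval of the ratio, 0.949 to 1.13, that included 1, and in paclitaxel-resistant cells CBR4 was 1.39-fold lower (95% interval 1.27 to 1.53). PALLD overlaps CBR4 on the other strand and had 3011, 1785 and 1829 counts. SETD4 overlaps CBR1 in the same way and had 865, 1094 and 2031 counts.

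POR (chr7:75899200-75986855, plus strand) supplies electrons to microsomal cytochromes P450. It had 3025 counts in MM468, 6358 in adriamycin-resistant and 4250 in paclitaxel-resistant cells, or 83.3, 115 and 95.2 TPM. It was 1.43-fold higher in adriamycin-resistant cells (95% interval 1.37 to 1.49). In paclitaxel-resistant cells its log2 fold change was -0.14, which turned to 0.09 with library size as the only normalization. TMEM120A, which overlaps POR on the other strand, had 564, 1575 and 683 counts.

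The resistant lines were also compared directly. Of the 10 genes, 0 were at least 2-fold higher in paclitaxel-resistant than in adriamycin-resistant cells and 5 were at least 2-fold lower. Over the 19327 genes of this comparison 19.4% were higher and 14.0% lower by that rule, and the median log2 fold change was -1.13 for the 10 genes and 0.04 for all. AKR1B10 was 32.7-fold lower (95% interval 27.4 to 39.3) and AKR1B1 7.49-fold lower (95% interval 7.24 to 7.74) in paclitaxel-resistant cells. AKR1C1, AKR1C2 and AKR1C3 were 4.11, 2.67 and 2.51-fold lower. On the deposited TPM with a pseudocount of 1, the log2 fold changes of AKR1C2 and AKR1C3 were -0.92 and -0.89, within 2-fold. CBR3 was the 1 gene of the 10 with a higher value in paclitaxel-resistant cells, 1.46-fold (95% interval 1.30 to 1.64).

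AKR1B10 had the largest change against MM468. Among 13059 genes with a mean of at least 100 counts, the 3 closest to it in the pair of log2 fold changes against MM468, 3.03 and -1.97, were DPP4, GDA and POTEF. DPP4, which encodes a cell-surface dipeptidase, had 54 counts in MM468, 594 in adriamycin-resistant and 23 in paclitaxel-resistant cells, and lay 0.17 log2 units away. GDA, which encodes guanine deaminase, had 26, 475 and 14 counts and lay 0.75 away, and POTEF, a member of a multigene family whose reads may be shared, had 33, 333 and 22 counts and lay 0.80 away. This likeness rests on 3 libraries and describes these values only.

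Related genes were followed in 7 lists. Among 10 other aldo-keto reductases with an entry in the table, 7 passed the count minimum against MM468 in adriamycin-resistant cells, with AKR1E2 higher and KCNAB2, a potassium channel subunit of this family, 2.94-fold lower (402 to 201 counts). In paclitaxel-resistant cells 8 passed, with 1 higher and 1 lower. The list medians were -0.47 and -0.15. AKR7A2, an aflatoxin aldehyde reductase that was picked after its values were seen, had 1083, 1555 and 1519 counts and log2 fold changes of -0.04 and -0.14.

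Among other short-chain carbonyl reductases, 22 were compared in adriamycin-resistant cells, with 6 higher and 1 lower by 2-fold or more and a median log2 fold change of 0.40. Of 21 compared in paclitaxel-resistant cells, 1 was higher and 5 were lower, with a median of -0.32. DHRS11, which encodes a reductase of steroids and quinones, had 781, 3120 and 1182 counts and was 2.71-fold higher in adriamycin-resistant cells (95% interval 2.51 to 2.94). HSD17B8, a partner of CBR4 in mitochondrial fatty acid synthesis, had 200, 619 and 64 counts and was 2.10-fold higher in adriamycin-resistant and 4.83-fold lower in paclitaxel-resistant cells. RDH10, a retinol dehydrogenase, was lower in both, by 4.27 and 2.90-fold. HSD17B12, of fatty acid elongation, was 2.60-fold lower in paclitaxel-resistant cells.

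Of 18 other enzymes that can reduce quinones or are flavoproteins of that kind, 4 were at least 2-fold higher and 1 lower in adriamycin-resistant cells, and 1 was higher and 3 were lower in paclitaxel-resistant cells. AOX1, aldehyde oxidase, had 34 counts in MM468, 2150 in adriamycin-resistant and 76 in paclitaxel-resistant cells. It was 42.8-fold higher in adriamycin-resistant cells (95% interval 30.6 to 62.2), and its ratio in paclitaxel-resistant cells, 1.44, had an interval of 0.952 to 2.23. XDH, xanthine dehydrogenase, was 4.87-fold higher in adriamycin-resistant cells (505 to 3622 counts), and TXNRD1, thioredoxin reductase, was 2.54-fold higher (9533 to 35633 counts). NQO2 was 2.88-fold lower in paclitaxel-resistant cells (920 to 494 counts). NQO1, the best known quinone reductase, was named after its values were seen and had 6102, 5549 and 5062 counts, with log2 fold changes of -0.69 and -0.90. The list medians were 0.36 in adriamycin-resistant and -0.59 in paclitaxel-resistant cells.

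NADPH is the cofactor of all 10 enzymes. Of 17 genes of NADPH supply compared in adriamycin-resistant cells, 0 were higher and 0 lower by 2-fold or more, and their median log2 fold change was -0.05. In paclitaxel-resistant cells 1 of 18 was higher and 3 were lower, with a median of -0.39. The 3 were TALDO1, of the pentose phosphate pathway (4958 to 2981 counts, 2.57-fold lower), IDH1, cytosolic isocitrate dehydrogenase (5971 to 4370 counts, 2.11-fold lower), and ALDH1L2, of mitochondrial folate metabolism (749 to 213 counts, 5.44-fold lower). By deposited TPM, IDH1 was at 174 in MM468 and 103 in paclitaxel-resistant cells, which is within 2-fold.

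Of 23 genes that take electrons from POR, mostly cytochromes P450, 5 were higher and 6 lower by 2-fold or more in adriamycin-resistant cells, and of 25 compared in paclitaxel-resistant cells 5 were higher and 10 were lower. The medians were -0.51 and -0.14. CYP2R1, vitamin D 25-hydroxylase, had 0 counts in MM468 and in adriamycin-resistant cells and 440 in paclitaxel-resistant cells, which against 3 counts is at least 94.8-fold higher than in MM468. CYP1A2 had 26, 14 and 367 counts and was 9.09-fold higher in paclitaxel-resistant cells (95% interval 6.12 to 14.2). CYP4X1, an orphan P450, had 2159, 848 and 56 counts, 3.75-fold lower in adriamycin-resistant and 59.5-fold lower in paclitaxel-resistant cells. CYP39A1, an oxysterol hydroxylase, was 11.1-fold and 4.27-fold lower.

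Steroid enzymes that work beside the AKR1C enzymes fell on both sides of 2-fold. Of 14 compared in adriamycin-resistant cells 2 were higher and 5 lower, and of 16 in paclitaxel-resistant cells 3 were higher and 6 lower, with medians of -0.09 and -0.75. HSD17B2, which oxidises estradiol and testosterone and so acts against the reaction of AKR1C3, had 443 counts in MM468, 19 in adriamycin-resistant and 477 in paclitaxel-resistant cells. It was 34.1-fold lower in adriamycin-resistant cells (95% interval 21.7 to 57.5) and 1.44-fold lower in paclitaxel-resistant cells. HSD17B11 had 42, 370 and 422 counts and was higher in both, 5.97-fold and 6.48-fold. HSD3B7, of bile acid synthesis, was 4.97-fold and 7.17-fold lower, and HSD11B2, which inactivates cortisol, was 2.75-fold and 4.96-fold lower.

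NRF2, encoded by NFE2L2, is a transcription factor known to drive several AKR genes. Of 21 genes of NRF2, its partners and its targets, with the 10 left out, 3 were at least 2-fold higher and 1 lower in adriamycin-resistant cells and 3 were higher and 6 lower in paclitaxel-resistant cells. The medians were -0.26 and -0.08. ABCC3, a transporter, was 2.89-fold higher in adriamycin-resistant cells (2646 to 11255 counts). MAFF, a small MAF partner, was lower in both, 2.96-fold and 3.23-fold. EPHX1, microsomal epoxide hydrolase, and SLC48A1, a heme transporter, were 3.24-fold and 4.07-fold lower in paclitaxel-resistant cells. NFE2L2 itself, named after its values were seen, had 5230, 5205 and 3932 counts, or 131, 92.0 and 77.9 TPM. Its log2 fold changes were -0.56 in adriamycin-resistant and -1.04 in paclitaxel-resistant cells, so it is among the 6 called lower in the latter.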

How the data were processed

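RNA from 1 library of each line was made into libraries with the TruSeq Stranded mRNA kit and sequenced. The submitters' processing notes name Trimmomatic 0.39, HISAT2 2.2.1, StringTie 2.2.1 and GRCh38. Read length, strand use and the treatment of reads that match several genes are not given in the sources used here. The authors deposited 1 table of 46427 genes with raw read counts, and also gave FPKM and TPM from the authors' own processing.

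Counts were compared between pairs of libraries in R 4.3.3 with edgeR 4.0.16 (TMM, prior count 0.125), for genes with 10 or more counts in 1 of the pair. With 1 library per line no quasi-likelihood fit can be made, so no test was run and the rule for a call is 2-fold. In simulated counts, the 200 genes changed 4-fold were called in the right direction (100% in each comparison). The simulated counts held counting error only, and the changed genes were drawn from those with ample counts. The simulation therefore checks the code, and cannot show how calls hold between real libraries or at low counts. A level of 3 counts corresponds to 0.0917 CPM in MM468, 0.0631 in adriamycin-resistant and 0.0694 in paclitaxel-resistant cells. Intervals cover counting error only, and read duplicates are not accounted for.

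The 10 genes and the related lists were chosen with earlier results of these data known. All 10 were named, as were ABCB1, the 3 genes nearest to the member with the largest change, and from each list at most 4 genes changed at least 2-fold in either resistant line with 100 or more counts in 1 library, ordered by size of change; a list with fewer than 2 such genes gives its 2 with the most counts. Any gene named outside this rule is marked as picked later, apart from overlapping or neighbouring genes and close copies. Gene positions and transcripts are from GENCODE v29 (GRCh38), and promoter windows from RefSeq (GRCh38.p14). Coding identity was computed with Biopython 1.88 and figures were drawn with matplotlib 3.10.9. The settings varied were the normalization (size factors of DESeq2 1.42.0, or library size only), TMM over all libraries, a prior count of 2, other count minimums, the deposited TPM or FPKM with a pseudocount, and summed counts of paralogs.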

Additional observations from a re-analysis of the deposited data

Results flagged for a closer look

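AKR1B1, AKR1B10 and AKR1C2 were flagged because the resistant lines lay on opposite sides of MM468. The log2 fold change of AKR1B1 was 1.93 in adriamycin-resistant and -0.93 in paclitaxel-resistant cells. For AKR1B10 it was 3.03 and -1.97. For AKR1C2 it was 0.23 and -1.15, and the first of these is within 2-fold. Each value rests on 1 library per line and on the same MM468 library, and these differences were not tested.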

How the results depend on the processing

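The log2 fold changes of the 10 genes were recomputed under 10 other settings, which gave 300 values. Of these, 18 had the other sign, all for CBR1, CBR4 and POR, and of the 130 values that belong to a called gene 12 fell within 2-fold, all for AKR1A1, AKR1C2 and AKR1C3. Library size as the only normalization moved the median of all genes by 0.23 in paclitaxel-resistant cells against MM468 and by 0.25 against adriamycin-resistant cells, and the deposited TPM with a pseudocount of 0.1 moved them by 0.32 and 0.40. The share of higher genes among those called went from 60.2% to 71.2% and 75.5%, and from 58.2% to 71.4% and 78.2%. Genes of the related lists were called on TMM-normalized counts only, so their calls near 2-fold in paclitaxel-resistant cells may depend on that choice. On the TPM with either pseudocount and on the FPKM, 2 of the 10 genes were called lower in paclitaxel-resistant cells against MM468, and 3 against adriamycin-resistant cells on the TPM. With AKR1C1, AKR1C2 and AKR1C3 summed, the log2 fold change in paclitaxel-resistant cells was -1.35, opposite to that of AKR1C3 alone, because AKR1C3 is a small part of the sum.

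Counts over all genes moved with the count minimum and the unit. In adriamycin-resistant cells against MM468, 4337 genes were higher and 3751 lower with no minimum, 800 and 1048 with a minimum of 100 counts, 707 and 1085 on TPM with a pseudocount of 1, and 460 and 663 on FPKM. In paclitaxel-resistant cells against MM468, 7035 were higher with no minimum, 1702 were higher and 1569 lower with 100 counts, 1055 were lower on TPM with a pseudocount of 1 and 1580 with 0.1, and 1374 and 882 were higher and lower on FPKM. Between the resistant lines the counts were 6520 and 4354, 1737 and 1601, 871 lower, 1446 lower, and 1334 and 781 in the same order of settings.

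No paired analysis was possible because each line has 1 library. Leaving out a library was not possible for the same reason. Biological variation, culture and library preparation cannot be told apart from the lines.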
